A study of Rattus norvegicus with 6 samples.

Results

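Homologous recombination, Fanconi anaemia and mismatch repair genes were examined in rat neonatal cardiomyocytes after transfection with siRNA against DYRK1A. The group comprised 33 named genes, and its members were the rows of the deposited gene count table whose gene name matched. Of these, 32 had a row among the 43035 rows of the table, and no row carried the name Chek1. Cardiomyocytes were isolated from the hearts of Sprague-Dawley rats on postnatal day 1, which carried no transgene or other allele named in the labels, and were kept in primary culture. The si-NC group (3 libraries) received scramble siRNA and the si-DYRK1A group (3 libraries) siRNA against DYRK1A, and both were collected after 48 h. The labels call the libraries of a group biological replicates but do not tie them to animals or litters, and the p-values measure the spread between these libraries. The study asked which transcripts changed when this kinase was reduced in cultured cardiomyocytes.

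Homologous recombination mends a DNA double-strand break by copying the sister chromatid. BRCA1 and BARD1 act early on the broken end, PALB2 and BRCA2 prepare single-stranded DNA for strand exchange, XRCC2, XRCC3 and RAD54 assist that step, and the BLM helicase and the MUS81 nuclease resolve the joined molecules. The Fanconi anaemia pathway handles DNA interstrand crosslinks by attaching ubiquitin to FANCD2 and FANCI, ATR and its activator TOPBP1 signal stalled replication forks, and MSH6 recognises mismatched bases. Many of these genes are transcribed mostly in cells that replicate DNA, and most cardiomyocytes leave the cell cycle soon after birth.

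Promoter sequences are shown for the 3 loci with an E2F-type motif at which transcripts were called higher below, and for 1 gene with such a motif and no call. They come from RefSeq (GRCr8, from 250 bases before to 50 after each start site), which held entries for 29 of the 33 members. Capitals mark TTTCCCGC, TTTGGCGC, TTTCGCGC or TTTGCCGC on either strand, letters known as E2F binding sequences. The Topbp1 window was chr8:112766722-112766783 on the plus strand, with TTTGGCGC on the strand of the gene overlapping TTTCGCGC on the other. The Bard1 window was chr9:80143928-80143985 on the minus strand, the Fancd2 window was chr4:148234706-148234735 on the plus strand across the start site, and the Rad51d window was chr10:68321903-68321941 on the minus strand.
Topbp1: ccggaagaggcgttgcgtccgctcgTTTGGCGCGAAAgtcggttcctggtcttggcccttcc
Bard1: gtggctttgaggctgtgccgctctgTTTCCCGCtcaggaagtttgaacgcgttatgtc
Fancd2: gcgtccgacaaGCGGGAAAgtcgaaaacga
Rad51d: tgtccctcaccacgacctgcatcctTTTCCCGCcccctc

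Some genes have several start sites in the table (31 promoters for the 29 members), and a gene was counted where any of its promoters held the letters. These letters were present in 9 of 29 members (31.0%) and in 2.4% of 27457 rat genes counted the same way. By single promoter the shares were 32.3% of 31 and 2.1% of 33469. By call, 3 of the 6 matched loci called higher held them (Topbp1, Bard1 and Fancd2), as did 4 of the 17 not called (Rad51d, Fancc, Fancl and Msh6), 1 of the 5 not tested (Atm) and Chek1. Topbp1, Bard1 and Fancd2 were called on rows without a gene name that cover them, described below. Brca1, Rad54l and Atr, called on their own rows, did not hold these letters. Xrcc2 and Blm, also called on their own rows, had no promoter entry. The letters GGCGGGAA, which can overlap TTTCCCGC on the opposite strand, were in 5 of 29 members (17.2%) and in 2.1% of all genes. CCAAT was in 14 of 29 members (48.3%) against 39.6% of all genes. By call, it was in 4 of the 6 called higher (Brca1, Rad54l, Topbp1 and Atr), 9 of the 17 not called and 1 of the 5 not tested. TTTGAA or TTCGAA, letters of the cell cycle homology region, were in 6 of 29 members (20.7%) against 21.0% of all genes, and at Topbp1 they lay in another promoter than the one shown. A match describes letters in a window and does not show a binding site.

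Libraries held 10325074 to 11921772 counts, of which 17.2% to 17.5% lay on unannotated rows, which the table lists as newly assembled transcripts with no gene name. Libraries are numbered below as in the labels (the first, the second and the third of each group). The targeted gene was checked first. Dyrk1a, the kinase gene, had 3, 0 and 1 counts in si-NC and 2, 1 and 0 in the libraries labelled si-DYRK1A. An unannotated row that covers it on its strand held 74.5, 77.7 and 80.9 CPM (counts scaled to the library size) in si-NC and 85.4, 80.1 and 81.7 in the libraries labelled si-DYRK1A, and it was not called (log2 fold change 0.08 ± 0.0575 SE, adjusted p = 0.374). The counts thus show no lower Dyrk1a level in these libraries, and every direction below rests on the labels. The study checked its knockdown by immunoblot of the DYRK1A protein, which these counts do not measure. Levels are given as CPM on library sizes normalised by TMM for comparisons between libraries, and as FPKM, which is scaled by gene length, for comparisons between genes. A gene was called when its two-sided edgeR quasi-likelihood p, adjusted by the Benjamini-Hochberg method over 15513 features, was under 0.05.

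Of the 33 genes, 18 passed the filter on low counts, with 44 to 1839 counts per library. Among them, 5 were called higher in the libraries labelled si-DYRK1A, Brca1, Rad54l, Xrcc2, Blm and Atr, whose fitted levels rose by 22.5% to 37.0%. No member was called lower. Of all 15513 features tested, 8.03% were called higher and 7.19% called lower. At an unadjusted p under 0.05, 8 members were higher and 0 lower, beside 14.2% and 13.1% of all features. DESeq2 called 3 members higher and 0 lower, beside 6.81% and 6.22% of the features it tested, and limma-voom 5 and 0, beside 7.96% and 6.99%. The log2 fold change was above 0 for 15 of the 18 members, and it had a median of 0.14 and a range of -0.06 to 0.45, where the median of all features was 0.002. For 9 members every si-DYRK1A library lay above every si-NC library, a pattern held by 16.2% of all features, and for 1 member every library lay below, a pattern held by 15.3%.

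**Figure D1:**
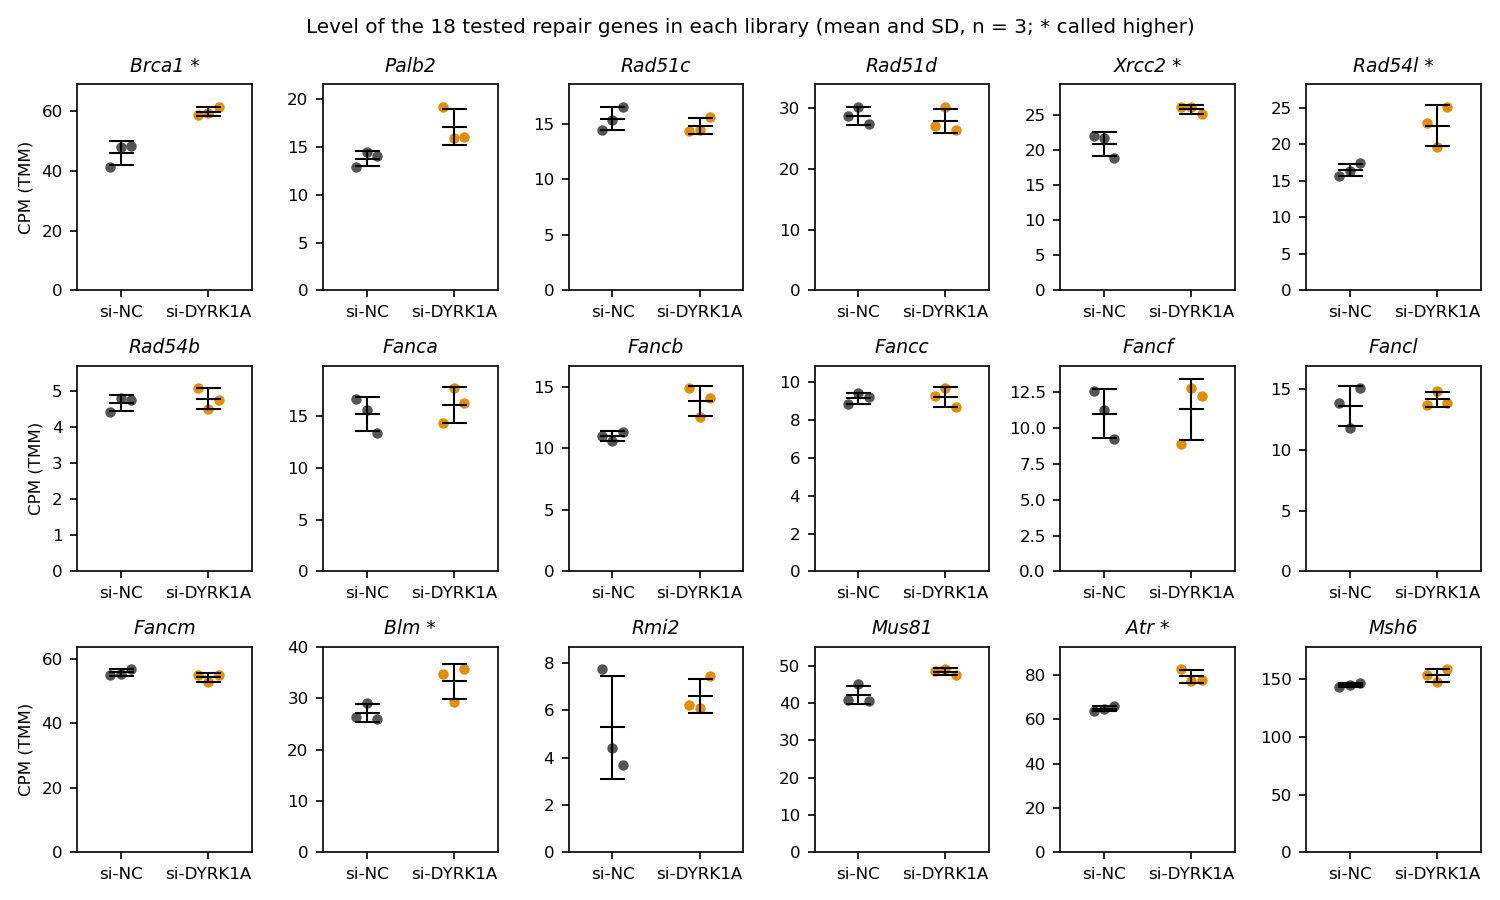
Level of the 18 tested genes in each library, in CPM on TMM library sizes (vertical axes from 0), with 1 point per library and bars for the mean and SD of 3 libraries per group. In Brca1, Rad54l, Xrcc2, Blm and Atr, marked by asterisks, all si-DYRK1A points lie above all si-NC points, and in Fanca, Fancf and Rad54b the groups overlap.

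The count of 5 depended on single libraries. It was 3 in the fit that omitted the third si-NC library, and 3 and 2 in those that omitted the first and the third si-DYRK1A library. Brca1 and Atr were called with any 1 library left out, at adjusted p of at most 0.0101 and 0.0113.

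Brca1 encodes the ubiquitin ligase subunit that commits broken ends to recombination, and lies on the minus strand of chromosome 10 (Rnor_6.0, chr10:89394803-89454681). It measured 41.3, 48.1 and 48.5 CPM in si-NC and 58.8, 59.5 and 61.6 CPM in si-DYRK1A. All si-DYRK1A libraries were higher, and the gap between the groups, 10.3 CPM, exceeded the range within either group. The log2 fold change was 0.38 ± 0.0729 (SE; adjusted p = 0.00088), or 30.3% higher.

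Bard1, the ubiquitin ligase partner of Brca1, had at most 3 counts in a library on its own row. An unannotated row (chr9:78293670-78368777, minus strand) covers 99.7% of its span, and the deposited domain notes give it the RING finger of BARD1. That row held 19.9, 22.2 and 19.8 CPM in si-NC and 31.4, 25.1 and 24.2 CPM in si-DYRK1A, so the groups did not overlap. It was called higher, with a log2 fold change of 0.38 ± 0.105 (adjusted p = 0.0158). The row also spans AABR07068030.1, which had 0 counts in every library. The adjusted p was 0.072 and 0.0565 with the first and the third si-NC library omitted, 0.143 with the first si-DYRK1A library omitted and 0.0547 by DESeq2, which ended the call.

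Palb2, which bridges BRCA1 and BRCA2, measured 12.9, 14.5 and 14.1 CPM in si-NC and 19.3, 16.0 and 16.1 CPM in si-DYRK1A. The groups did not overlap, and the gene was not called (log2 fold change 0.31 ± 0.115, adjusted p = 0.0765). Brca2, which acts on single-stranded DNA before strand exchange, had 0 counts on its own row in every library. Its covering row (chr12:503693-545430, plus strand), to which the deposited notes give BRCA2 repeats, held 11, 7 and 14 counts in si-NC and 16, 21 and 27 in si-DYRK1A. Every si-DYRK1A library was higher, yet with so few counts the log2 fold change of 1.02 had an SE of 0.379, and the row was not called (adjusted p = 0.0768).

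Xrcc2, Xrcc3, Rad51c and Rad51d, which assist strand exchange, did not share a call. Xrcc2 measured 22.1, 21.8 and 19.0 CPM in si-NC and 26.2, 26.3 and 25.2 CPM in si-DYRK1A, and was called higher (log2 fold change 0.31 ± 0.0938, adjusted p = 0.0293). All si-DYRK1A libraries were above all si-NC libraries. The call ended by DESeq2 (adjusted p = 0.118) and with the third si-NC library omitted (0.13). It also ended with the first, the second or the third si-DYRK1A library omitted (adjusted p = 0.0887, 0.097 and 0.0611).

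Rad51c measured 14.5, 15.4 and 16.6 CPM in si-NC and 14.3, 14.4 and 15.7 CPM in si-DYRK1A. Rad51d, whose promoter motif is shown above, measured 28.6, 30.2 and 27.3 CPM in si-NC and 27.0, 30.04 and 26.3 CPM in si-DYRK1A. The groups overlapped in both genes, with log2 fold changes of -0.06 (95% interval -0.30 to 0.17) and -0.05 (-0.23 to 0.14). Xrcc3 had 0 counts on its own row, and the row that covers it had 9.68, 10.7 and 9.53 CPM in si-NC and 11.2, 10.6 and 12.1 CPM in si-DYRK1A. Its groups overlapped, and it was not called (log2 fold change 0.18 ± 0.134, adjusted p = 0.434). An opposite-strand unannotated row at Klc1 overlaps 27.8% of the Xrcc3 span, and whether reads were counted by strand is not given in the sources used here.

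Among Rad54l, Rad54b and Rad51ap1, which act in strand invasion, Rad54l had the highest log2 fold change, which was also the highest of the 18 tested members. It encodes the RAD54 motor protein and lies at chr5:134948512-134978125 on the minus strand. It measured 15.7, 16.3 and 17.4 CPM in si-NC and 22.9, 19.7 and 25.2 CPM in si-DYRK1A. The groups did not overlap, although the si-DYRK1A libraries spread more widely. Its log2 fold change was 0.45 ± 0.107 (adjusted p = 0.00534), or 37.0% higher, and the call ended with the third si-DYRK1A library omitted (adjusted p = 0.0562) and on log2(FPKM + 1) with limma (0.0597).

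Rad54b, a relative of Rad54l, was the member of lowest level among those tested, at 1.41 ± 0.0714 FPKM (SD, n = 3) in si-NC. It measured 4.41, 4.82 and 4.77 CPM in si-NC and 5.10, 4.52 and 4.76 CPM in si-DYRK1A, with overlap and a log2 fold change of 0.04 (95% interval -0.36 to 0.44). An unannotated row that shares 41.4% of its span and also covers Fsbp was not called. Rad51ap1, which stimulates strand invasion, had 0 counts on its own row, and its covering row had 1 count in all.

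No gene of the Fanconi core complex, the ubiquitin ligase for FANCD2 and FANCI and its helicase FANCM, was called. Of its 8 members here, 6 were tested, their median log2 fold change was 0.05, and 1 of them was higher at an unadjusted p under 0.05. DESeq2 and limma-voom called 0 of them as well. With 6 genes and 8.03% of all features called higher, or 14.2% at the unadjusted p, these counts do not set the complex apart from the rest. That one was Fancb, with 11.0, 10.6 and 11.4 CPM in si-NC and 14.95, 12.5 and 14.1 CPM in si-DYRK1A. Its groups did not overlap, and its log2 fold change of 0.34 ± 0.124 did not pass (adjusted p = 0.0747).

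The other 5 tested core genes had log2 fold changes between -0.04 and 0.08. Fanca measured 16.7, 15.6 and 13.4 CPM in si-NC and 14.3, 17.8 and 16.3 CPM in si-DYRK1A. Fancc measured 8.82, 9.39 and 9.20 CPM against 9.24, 9.70 and 8.65, and Fancf 12.6, 11.3 and 9.20 CPM against 8.88, 12.8 and 12.2. In all 3 the groups overlapped, and the 95% intervals of the log2 fold change were -0.16 to 0.33, -0.29 to 0.31 and -0.28 to 0.36.

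Fancl, the catalytic subunit, measured 13.9, 11.8 and 15.1 CPM in si-NC and 13.7, 14.9 and 13.9 CPM in si-DYRK1A (log2 fold change 0.05, 95% interval -0.20 to 0.31). Fancm, the anchoring helicase, measured 55.1, 55.3 and 57.0 CPM in si-NC and 55.1, 52.7 and 55.1 CPM in si-DYRK1A. The groups of Fancm met at 55.1 CPM, with no si-DYRK1A library above a si-NC library, and its log2 fold change was -0.04 (95% interval -0.17 to 0.10). Fance and Fancg had 0 counts on their own rows. The covering row of Fancg held 15, 18 and 20 counts in si-NC and 26, 21 and 32 in si-DYRK1A without overlap, and was not called (log2 fold change 0.60 ± 0.301, adjusted p = 0.204). That of Fance held 5 to 11 counts per library and was not tested.

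FANCD2 and FANCI form the clamp that the core complex marks with ubiquitin, and both genes had 0 counts on their own rows in every library. At Fancd2, the covering row (chr4:145487438-145552272, plus strand), noted as FancD2 nuclease, held 12, 18 and 21 counts in si-NC and 38, 24 and 39 in si-DYRK1A. Every si-DYRK1A library was higher. The row was called higher, with a log2 fold change of 1.01 ± 0.298 (adjusted p = 0.0237), a fitted rise of 101.3% on few counts. The call ended with the first or the second si-NC library omitted (adjusted p = 0.0935 and 0.052) and with the first or the third si-DYRK1A library omitted (0.0923 and 0.107). At Fanci, the covering row held 12.4, 8.96 and 9.45 CPM in si-NC and 10.7, 12.8 and 11.5 CPM in si-DYRK1A, overlapping and not called (log2 fold change 0.19 ± 0.146, adjusted p = 0.437).

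Blm, the RecQ helicase that dissolves double Holliday junctions with RMI1 and RMI2, lies at chr1:142246790-142332588 on the minus strand. It measured 26.5, 29.1 and 25.9 CPM in si-NC and 34.7, 29.4 and 35.8 CPM in si-DYRK1A. The groups were separated by 0.289 CPM, the distance between the second libraries of both groups. Blm was called higher (log2 fold change 0.30 ± 0.0917, adjusted p = 0.0315). The adjusted p was 0.102 by DESeq2, 0.108 and 0.102 with the first and the third si-NC library omitted, and 0.119 and 0.161 with the first and the third si-DYRK1A library omitted, none of them a call.

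Rmi2 was the most variable tested member in si-NC, with 7.77, 4.40 and 3.68 CPM, a coefficient of variation of 41.3%, against 6.25, 6.12 and 7.44 CPM in si-DYRK1A. The highest value was in the first si-NC library, the groups overlapped, and the gene was not called (log2 fold change 0.33 ± 0.235, adjusted p = 0.392). With that library omitted it was called higher, with a log2 fold change of 0.71 and an adjusted p of 0.0381. The covering row of Rmi1 held 11.5, 8.12 and 11.5 CPM in si-NC and 11.5, 12.3 and 10.4 CPM in si-DYRK1A, overlapping, with a log2 fold change of 0.14 ± 0.15. Brip1, the BRCA1-associated helicase, had 0 to 3 counts per library, and its covering row had 0.

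Mus81, the catalytic subunit of a structure-selective nuclease, stood second among the tested members by length-scaled level, at 20.4 ± 1.28 FPKM in si-NC. It measured 40.9, 45.1 and 40.6 CPM in si-NC and 48.6, 49.3 and 47.5 CPM in si-DYRK1A without overlap. Its log2 fold change of 0.20 ± 0.0723 did not pass (adjusted p = 0.068), and it passed with the second si-NC library omitted (adjusted p = 0.0391). Its partner Eme1 had 1 to 3 counts per library, and the covering row of Eme1 had 0 to 8. Exo1, an exonuclease that resects broken ends and also serves mismatch repair, had 0 counts on its own row. Its covering row, noted as XPG-like, held 12, 21 and 37 counts in si-NC and 33, 36 and 42 in si-DYRK1A. The groups overlapped at the third si-NC library, and the row was not called (log2 fold change 0.70 ± 0.303, adjusted p = 0.132), although without that library it was called, with a log2 fold change of 1.15 and an adjusted p of 0.0203.

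Of the checkpoint genes, Atr, the kinase recruited to single-stranded DNA, lies at chr8:103673411-103770947 on the plus strand. It measured 63.7, 64.7 and 65.9 CPM in si-NC and 82.9, 77.3 and 77.8 CPM in si-DYRK1A. The groups were 11.4 CPM apart, and si-NC varied by 1.72% (coefficient of variation). The log2 fold change was 0.29 ± 0.059 (adjusted p = 0.00144), or 22.5% higher.

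Topbp1, the activator of ATR, had 0 counts on its own row in every library. The row that covers it (chr8:111790675-111834883, plus strand), noted to hold BRCT domains, measured 30.6, 29.1 and 30.9 CPM in si-NC and 36.2, 37.8 and 39.6 CPM in si-DYRK1A. The lowest si-DYRK1A library lay 5.3 CPM above the highest si-NC library. The row was called higher (log2 fold change 0.33 ± 0.0792, adjusted p = 0.00638), and it was called with any 1 library left out, at an adjusted p of at most 0.0445.

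Atm, the kinase activated by double-strand breaks, had 3 counts in the third si-DYRK1A library and 0 in the other libraries, and its covering row had 0 in all 6. Chek1, the kinase downstream of ATR, is not analysed here, since no row carries its name. Msh6, the mismatch recognition subunit, was the member of highest level, at 29.6 to 30.3 FPKM in the si-NC libraries. It measured 144, 145 and 146 CPM in si-NC and 154, 148 and 159 CPM in si-DYRK1A. The groups did not overlap, but the difference was small, with a log2 fold change of 0.08 (95% interval -0.02 to 0.18, adjusted p = 0.283).

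**Figure D2:**
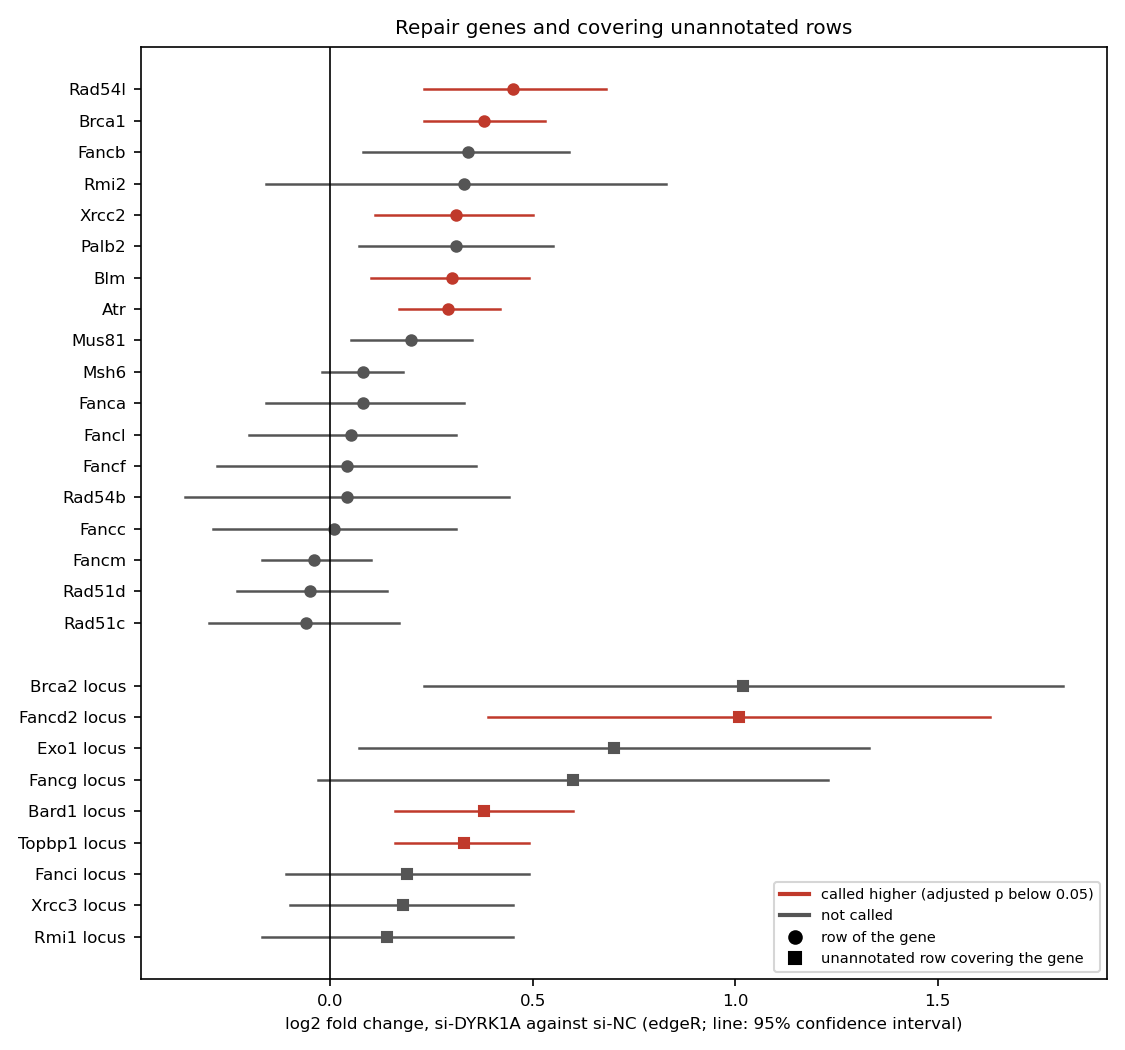
Log2 fold change of si-DYRK1A against si-NC from edgeR with its 95% confidence interval, for the 18 tested genes (circles) and the 9 tested unannotated rows that cover a member (squares), with called features in red. Rad54l lies highest among the genes at 0.45, and the rows at Brca2 and Fancd2 lie highest among the unannotated rows at 1.02 and 1.01 with wide intervals.

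Rows of the genes and unannotated rows divided the members. The 14 members with a row that did not pass the filter had at most 3 counts in any library, and 9 of them had 0 in every library. All 14 were covered on their own strand, over at least 50% of their span, by an unannotated row. Of the 18 tested members, only Msh6 was so covered, by a row with 0 to 4 counts per library. The 15 covering rows included 9 that were tested, of which 3 were called higher (Topbp1, Bard1 and Fancd2) and 0 lower, beside the 8.03% and 7.19% of all features. At an unadjusted p under 0.05, 5 of the 9 were higher and 0 lower, beside 14.2% and 13.1% of all features. DESeq2 called 1 higher and 0 lower, with no adjusted p for the row at Fancd2, and limma-voom called 3 and 0. All 9 had a positive log2 fold change, with a median of 0.38. Their count of 3 calls was 1 with the first si-NC library omitted and 1 with the first si-DYRK1A library omitted. The 6 others had between 0 and 11 counts per library. The floor for an observed 0 was set at 3 counts in a library, which equal 0.251 to 0.288 CPM. That floor covers counting error on the row itself and not reads assigned to another row.

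**Figure D3:**
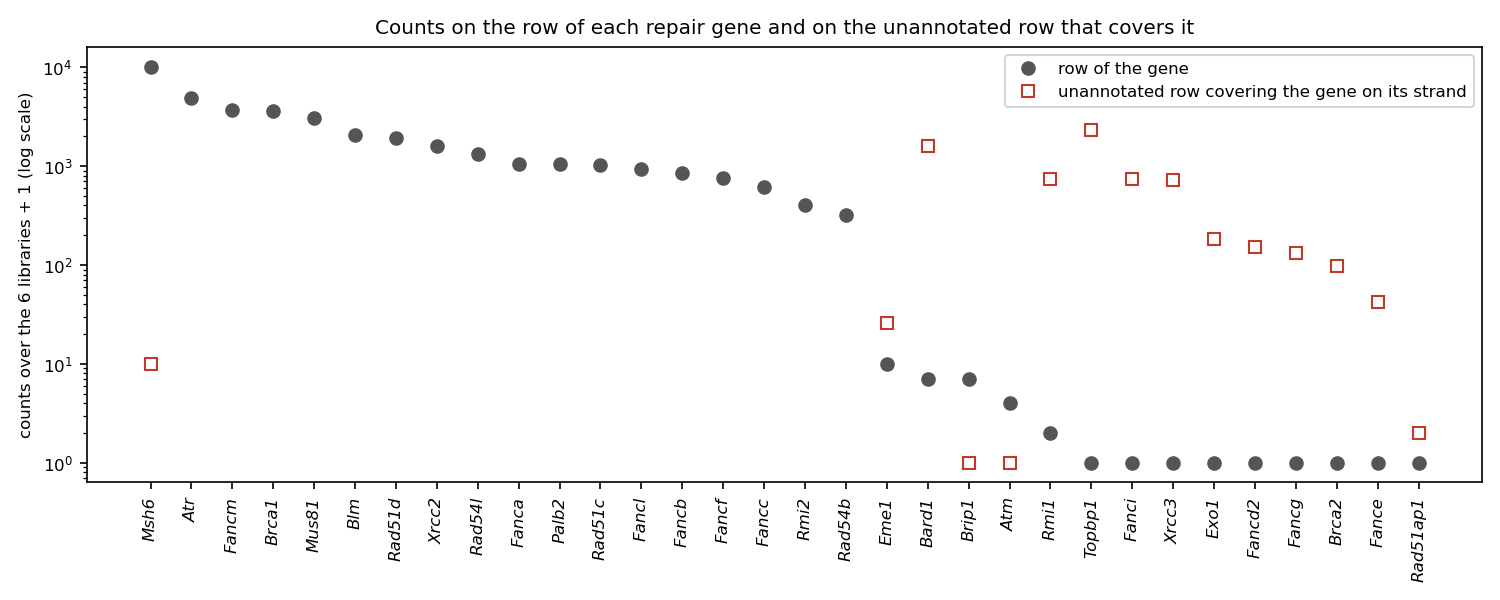
Counts summed over the 6 libraries, plus 1, on a log axis, for the row of each of 32 genes (filled circles) and for the unannotated row that covers it on its strand (open squares). The 18 genes on the left hold their counts on their own row, and for most of the 14 on the right the unannotated row holds more counts than the gene row.

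When the counts of each gene and of its covering row were added and the fit repeated, 26 of 32 loci were tested. Of these, 7 were called higher, the 5 genes above with Fancd2 and Topbp1, and 0 were called lower. In the same fit 1244 of all 15513 features were called higher and 1115 lower. The median log2 fold change of the 26 loci was 0.24, and 23 of them lay above 0. Of all 15513 features, 7817 lay above 0 in the fit without summing. Bard1 was not summed, because its covering row spans a second annotated gene.

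Other genes of the same pathways, 93 symbols that are not members, were set beside them. Of these, 55 were tested, 13 called higher (23.6%) and 1 lower, with a median log2 fold change of 0.11. Over all features tested, 8.03% were called higher and 7.19% lower, the shares to set beside each list below. DESeq2 called 8 of these genes higher and 1 lower, and limma-voom 12 and 1. The count of 13 was 6 with the first si-NC library omitted and 8 with the third si-DYRK1A library omitted. In the list of homologous recombination and strand exchange, 26 of 41 genes were tested, 6 called higher and 1 lower. At an unadjusted p under 0.05, 11 of them were higher and 3 lower, beside 14.2% and 13.1% of all features. Rpa2 and Rpa1, subunits of the protein that coats single-stranded DNA, rose with log2 fold changes of 0.28 ± 0.0563 (adjusted p = 0.00138) and 0.24 ± 0.048 (adjusted p = 0.0014). Recql4, a RecQ helicase, rose by 0.43 ± 0.103 on the log2 scale (adjusted p = 0.00642). The gene called lower was Nbn, the NBS1 subunit of the MRE11 complex that senses breaks, with a log2 fold change of -0.23 ± 0.0571 (adjusted p = 0.00732), named here after its values were seen.

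In the list of other Fanconi genes, 12 of 16 were tested, and 0 were called in either direction by edgeR, DESeq2 or limma-voom, with 1 higher and 0 lower at an unadjusted p under 0.05. The 3 with the smallest p were Wdr48 (log2 fold change 0.11, adjusted p = 0.123), Poln (log2 fold change 0.86, adjusted p = 0.19, on 5 to 16 counts) and Usp1 (log2 fold change 0.22, adjusted p = 0.208). The mismatch repair list had 10 of 17 genes tested, 5 called higher and 0 lower, with 5 and 0 at an unadjusted p under 0.05. Rfc3 and Rfc5, subunits of the loader of the sliding clamp, rose with log2 fold changes of 0.42 ± 0.0617 (adjusted p = 5.45e-05) and 0.32 ± 0.0689 (adjusted p = 0.00223). Pcna, the clamp itself, rose by 0.27 ± 0.0471 on the log2 scale (adjusted p = 0.000314). These 3 proteins also serve DNA replication.

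In the checkpoint list, 7 of 19 genes were tested, 2 called higher and 0 lower. Wee1, the kinase that restrains mitotic entry, rose by 0.29 ± 0.0624 on the log2 scale (adjusted p = 0.00279), and Chek2, the kinase downstream of ATM, by 0.29 ± 0.0825 (adjusted p = 0.0208). H2ax, the histone variant phosphorylated at breaks, had a log2 fold change of 0.15 ± 0.055 and was not called (adjusted p = 0.0686).

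Repair pathways outside the group gave 3 higher (12.5%) and 0 lower calls among 24 tested genes, beside 8.03% and 7.19% of all features. Their median log2 fold change was 0.03. DESeq2 called 1 of them higher and 0 lower, and limma-voom 2 and 0. Of 6 tested genes of non-homologous end joining, 0 were called by edgeR, DESeq2 or limma-voom, with 0 higher and 1 lower at an unadjusted p under 0.05. Xrcc5, the Ku80 subunit, had a log2 fold change of -0.16 (adjusted p = 0.166), Aplf -0.14 (adjusted p = 0.303) and Polm -0.06 (adjusted p = 0.701). Of 10 tested base excision genes, 2 were called higher, Parp1 (log2 fold change 0.19 ± 0.0492, adjusted p = 0.0111) and Neil3 (0.56 ± 0.167, adjusted p = 0.0255), and Nthl1 was not (0.23, adjusted p = 0.0767). Of 8 tested nucleotide excision genes, 1 was called higher, Gtf2h3 (log2 fold change 0.23 ± 0.079, adjusted p = 0.0482), and Xab2 (0.08) and Xpc (-0.06) were not. DESeq2 and limma-voom called 0 genes of this list in either direction. The differences between lists were not tested.

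**Figure D4:**
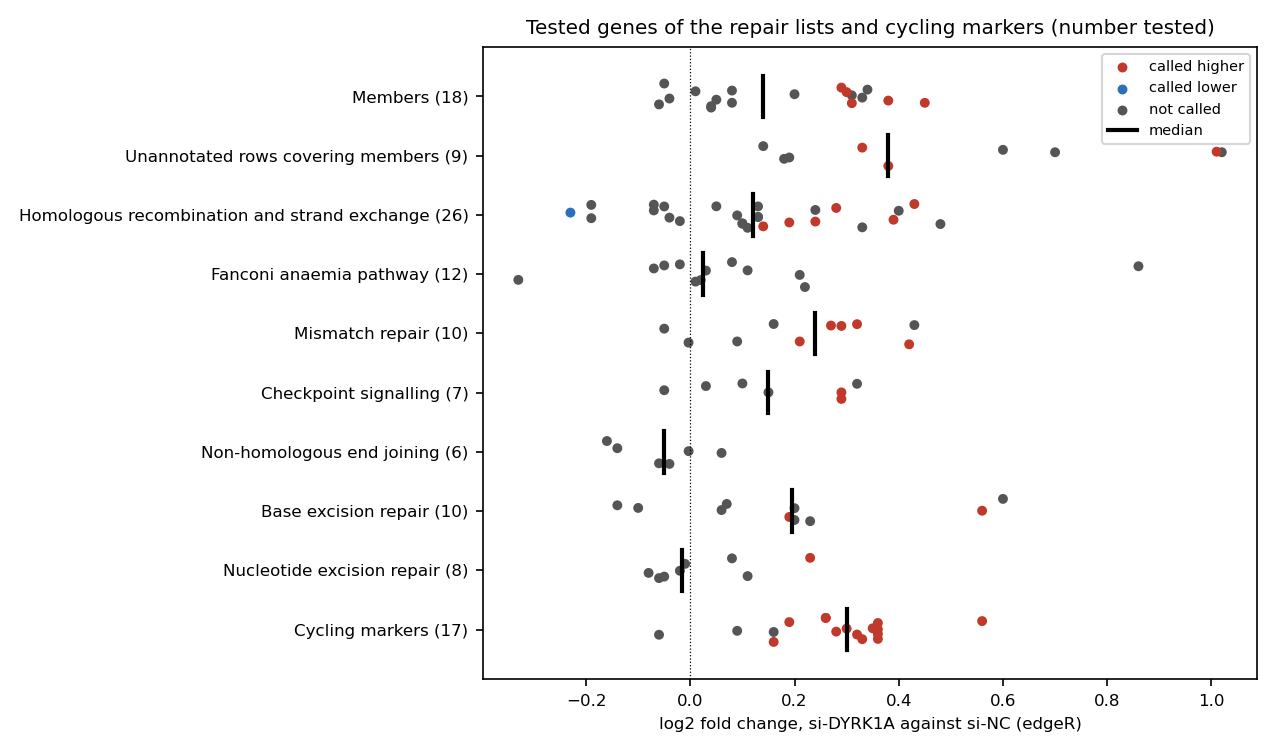
Log2 fold change (edgeR) of each tested feature in the members, the unannotated rows that cover members, the other repair lists and the cycling markers, with the number tested in brackets, called features in colour and a bar at the median. The medians are 0.14 for the members, 0.30 for the cycling markers and -0.05 for non-homologous end joining.

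Markers of cycling cells were also set beside the members, and no association between them was tested. Of 17 tested cycling markers, 14 were called higher and 0 lower, with a median log2 fold change of 0.30. Of the 18 tested members, 5 were called higher, and of all features 8.03% were called higher and 7.19% lower. Birc5 (survivin) rose by 0.56 ± 0.0682 on the log2 scale (adjusted p = 5.11e-06), Top2a (topoisomerase IIα) by 0.36 ± 0.0457 and Mcm3, a subunit of the replicative helicase, by 0.35 ± 0.0495. The summed level of the 25 markers with a row was 1818 to 1846 CPM in si-NC and 2164 to 2295 CPM in si-DYRK1A, and that of the members 540.0 to 553.6 and 600.9 to 622.8 CPM. Mki67, Aurka, Cenpf, Rrm2, E2f8 and Mybl2 were at 0 on their own rows in every library. In bulk samples more cycling cells and more RNA per cell cannot be told apart, and the part of the cycling cells in the result was not tested.

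Summed levels of the cell type markers also did not overlap between the groups, except those of the erythroid markers, and those of the macrophage markers nearly met. The 10 cardiomyocyte markers summed to 19910 to 20740 CPM in si-NC and 22700 to 23670 CPM in si-DYRK1A, with 3 of 5 tested genes called higher. Nppa, the natriuretic peptide gene with the highest FPKM of that list, had a log2 fold change of 0.37 ± 0.0433 (adjusted p = 3.71e-06), and the defining genes Tnni3, Myh6, Myh7 and Myl2 were at 0 on their own rows, each with a covering unannotated row that held counts. Nppa had the highest log2 fold change of the 5 tested, 3 of which lay above 0, and the lowest was -0.14. Of these 5, 1 was lower at an unadjusted p under 0.05, and limma-voom called 1 lower. The fibroblast markers summed to 22110 to 26830 and 20920 to 21670 CPM, with Col1a1 at a log2 fold change of -0.37 ± 0.102 (adjusted p = 0.0869), 2 of 7 called higher and Pdgfra at 0. Col1a1 was the lowest of the 7 tested fibroblast markers, 5 of which lay above 0, with a median of 0.14 and a highest value of 1.10 (log2). The endothelial markers summed to 188.6 to 208.8 and 158.8 to 166.3 CPM, with 3 of 8 called lower, Tek at a log2 fold change of -0.75 ± 0.0742 and Cldn5 at 0. Tek was the lowest of these 8, whose median was -0.37 and highest value 0.19 (log2), with 2 above 0. For 1 of the 8 every si-DYRK1A library lay above every si-NC library, and for 3 every si-DYRK1A library lay below. These patterns were held by 16.2% and 15.3% of all features.

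The smooth muscle markers summed to 2708 to 2913 and 2504 to 2637 CPM, with 1 of 3 called lower (Des, log2 fold change -0.15 ± 0.0425) and Myh11, Acta2, Smtn, Lmod1 and Notch3 at 0. In bulk cultures of cardiomyocytes the Des value cannot be assigned to smooth muscle cells. The macrophage markers summed to 227.2 to 234.3 and 234.7 to 265.3 CPM, with 1 of 7 called higher (Lyz2, log2 fold change 0.41 ± 0.0641) and Cd68 at 0. Lyz2 was the highest of these 7, their lowest log2 fold change was -0.54, and 2 of them were lower at an unadjusted p under 0.05, with every si-DYRK1A library below every si-NC library. The erythroid markers summed to 8.63 to 10.74 and 10.39 to 11.52 CPM, with 0 of 4 called by edgeR, DESeq2 or limma-voom, 1 higher at an unadjusted p under 0.05 and Ermap at a log2 fold change of 0.30 ± 0.378. The part of these cells in the members' values was not tested.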

How the data were processed

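RNA-seq of 6 libraries was analysed, with groups and replicate numbers from the labels. Per the study's methods, the authors aligned their reads with HISAT2 to the Rnor_6.0 build, and they deposited raw counts and FPKM values per gene (counts scaled by gene length and library). The submitters' processing notes name Bowtie 0.12.2 and mm8 instead. How reads were counted, from which annotation release and with which strand setting is not given in the sources used here. Chromosome positions in the text are those listed by the authors, except for the RefSeq promoters (GRCr8).

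Counts were tested in R 4.3.3 with edgeR 4.0.16 (quasi-likelihood, two-sided), with TMM normalization, a robust fit and filterByExpr (minimum count 10, total at least 15), and adjusted by the Benjamini-Hochberg method over 15513 features with a threshold of 0.05. The SE is the log2 fold change divided by the root of the F statistic. Unannotated rows covering at least 50% of a gene on its strand were treated as covering it. The genes named were all members, the 3 tested genes with the smallest p of each other list, the cell type marker with the highest FPKM of each list, Dyrk1a and the covering rows. The members and lists were chosen with earlier results of these data known. Alternatives were RLE, upper-quartile and library-size scaling, DESeq2 1.42.0, limma-voom and limma 3.58.1 on log2(FPKM + 1) or log2(FPKM + 0.1) for features that exceeded 0.5 FPKM in 3 or more libraries, also log2(FPKM + 1) unfiltered, other count filters, a replicate block, annotated genes only, omission of each library, summed loci and a threshold of 0.01. Scripts were tested on simulated counts. Floors and counts of 0 cover counting error only. The gene lists are descriptive and received no set test.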

Additional observations from a re-analysis of the deposited data

How the results depend on the processing

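The 5 higher calls among members became 3 with DESeq2, 2 with limma on log2(FPKM + 1), 2 on log2(FPKM + 0.1), 0 on log2(FPKM + 1) without a filter, and 3 at an adjusted p under 0.01. With 1 library left out they numbered 2 to 6. The 3 higher calls among covering rows became 1, 1, 1, 0 and 1 under the same settings in the same order, and 1 to 3 with 1 library left out. Of these rows, the one at Fancd2 had no adjusted p by DESeq2 and did not pass the filter of either filtered FPKM fit. The 13 higher calls among other pathway genes became 8, 7, 7, 4 and 7, and 6 to 13 with 1 library left out. The 1 lower call became 0 on log2(FPKM + 1) without a filter. Over all features, DESeq2 called 823 higher and 752 lower, limma 662 and 537 on log2(FPKM + 1), 655 and 525 on log2(FPKM + 0.1), and 344 and 247 without the filter, against 1245 and 1115. The cause was not tested. Scaling by library size alone gave 1063 higher and 1339 lower calls and a median log2 fold change of -0.02 over all features, with 5 members called higher.

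Replicate numbers did not pair the libraries: deviations of same-numbered libraries correlated at 0.058, -0.026 and -0.004. With the replicate block, 5 members and 3 covering rows were higher, 0 and 0 lower, and 12 other pathway genes higher and 1 lower.

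Signs changed only in features that were not called. With 1 library left out, log2 fold changes ranged from -0.01 to 0.08 for Rad54b (-0.0004 without the first si-NC library), -0.01 to 0.16 for Fanca, -0.03 to 0.05 for Fancc (-0.02 without the first si-NC library), -0.08 to 0.19 for Fancf (also -0.06 and -0.02), -0.04 to 0.13 for Fancl and -0.02 to 0.22 for the row at Rmi1. Fancc was at -0.02 by library size and at -0.0012 without a count filter. Brca1, Atr and the row at Topbp1 lost their calls only on log2(FPKM + 1) without a filter (adjusted p = 0.0876, 0.0801 and 0.0883). On their own rows, 14 members had too few counts to be tested.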
